A study of Drosophila melanogaster with 2 samples.

Results

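The 8 genes described here encode the core of the Drosophila JAK/STAT pathway: the ligands upd1, upd2 and upd3, the receptor dome, the Janus kinase hop, the transcription factor Stat92E, and the inhibitors Socs36E and Ptp61F. They were taken by name, out of 13945 protein-coding genes on the 6 chromosome arms, and the rule uses no measured value. Around each gene the summits of the Slp2 peak lists were collected in the gene body and within 20 kb of it. Each is given with the signal value of its peak, its rank in its list and the nearest transcription start site (TSS). The nearest TSS was taken among protein-coding genes unless stated.

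Slp2 (Sloppy paired 2) is a transcription factor of the forkhead family. Its binding was measured by ChIP-seq, the sequencing of DNA recovered with an immunoprecipitated protein, in Drosophila melanogaster whole embryos aged 0 to 24 hours, both sexes together. The embryos of both samples came from 1 transgenic line, named as strain 9T-GFP, that carries Slp2 with green fluorescent protein at its C terminus as the target of the precipitating antibody. The 2 samples, biological replicates 2 and 3, form the only group, so no second genotype, stage or treatment stands beside them. The labels do not say which regulatory sequence drives the fusion gene, and an untagged control was not analysed here. Whole embryos mix all tissues and stages, so occupancy in few cells and weak occupancy in many cannot be told apart.

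In the fly, the Upd proteins are secreted cytokines that bind the receptor Domeless. The bound receptor activates the kinase Hopscotch, which phosphorylates Stat92E, and the phosphorylated factor enters the nucleus and binds DNA. In the embryo the pathway is known for its part in segmentation, where loss of hop or Stat92E changes the stripes of pair-rule genes such as even-skipped, and in the shaping of the trachea, gut and posterior spiracles. Slp2 is itself a product of the pair-rule system and acts in segmentation.

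The peaks come from a relaxed list for each replicate, a relaxed list called on both together (pooled), and a shorter list cut at a limit on IDR, the irreproducible discovery rate, which rests on how well ranks agree between replicates. These held 30000, 30000, 28637 and 3203 peaks on dm6. The IDR list consists of the 3203 strongest peaks of the pooled list, so its signal values are pooled values without an error of their own, and the spread is given by the value in each replicate. The signal value is the authors' score, with no stated scale. The number of reads is unknown. No test was made, because there is 1 group. Many counts are set beside the same count over all genes or all IDR summits instead.

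All 8 genes had at least 1 IDR summit within their window, a share to be read against the 69.1% of all protein-coding genes that had one. The number per gene was 1 for each of upd1, upd2 and upd3, 2 for dome and for hop, 3 for Stat92E and for Socs36E, and 11 for Ptp61F. The median over the 8 genes was 2, against 1 over all protein-coding genes. Because upd1 and upd3 shared their only summit, these were 23 distinct summits. Among TSSs of protein-coding genes, only 6 of the 23 had one of the 8 genes as the nearest, while 17 lay nearer to a neighbour. With the TSSs of all annotated genes the number was 4 instead of 6. A lncRNA TSS was then nearer to the upd1 summit and to the strongest Socs36E summit. By gene, among protein-coding TSSs, 5 of the 8 had at least 1 IDR summit with an own TSS as the nearest (17.0% of all genes). These were upd1, upd2, Stat92E, Socs36E and Ptp61F. An IDR summit stood inside the body of 3 genes, Stat92E, Socs36E and Ptp61F (9.06% of all genes). At 16989, 13743 and 132765 bp these were the longest bodies of the 8, and the share was not adjusted for gene length.

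**Figure D1:**
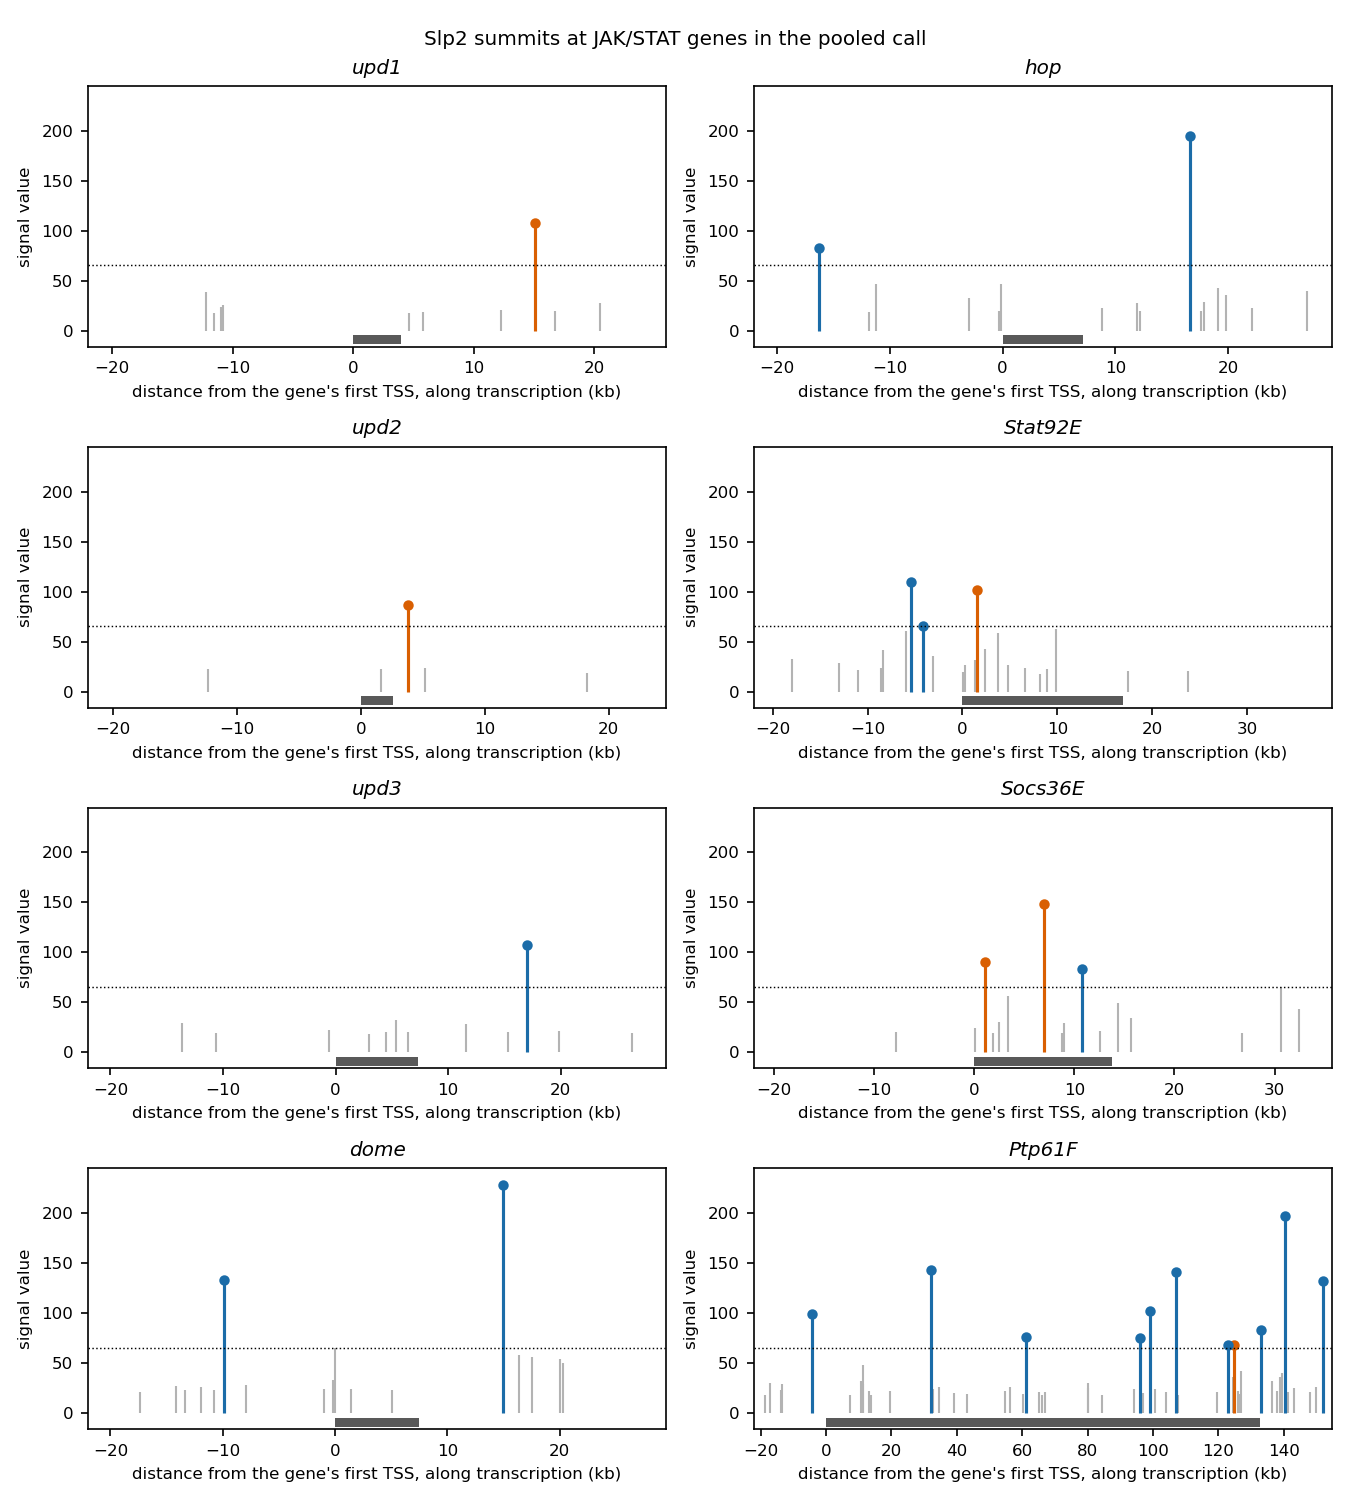
Summits of the pooled call around each gene, plotted by distance from the gene's first TSS in the direction of transcription (x, kb) and by signal value (y). The dark bar is the gene body, orange stems are IDR summits with an own TSS as the nearest, blue stems are IDR summits nearer to another gene, grey stems are pooled summits below the IDR list, and the dotted line is the lowest signal of the IDR list. The ligand genes have 1 IDR stem each, outside the body, and Ptp61F has 11, of which 1 is orange.

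The sequences below are the 201 bases centred on the strongest IDR summit of each gene that lay inside the gene or nearest to its own TSS and outside the exons of protein-coding genes. A further sequence, chosen after the motif matches were seen, is the Ptp61F summit with the most kinds of match. All are read from the plus strand of the Release 6 genome (RefSeq, dm6 coordinates). Capitals mark matches on either strand to one of 6 motifs: forkhead (TGTTTAC or TGTTTAT or TGTTGAC or TGTTGAT), STAT (TTCNNNGAA, or the same with 1 more base between its ends), DREF (TATCGATA), GAGA factor (GAGAGAG), Zelda (CAGGTAG) and GATA factors (AGATAAG).
upd1 and upd3, X, 18294113 to 18294313, signal 108: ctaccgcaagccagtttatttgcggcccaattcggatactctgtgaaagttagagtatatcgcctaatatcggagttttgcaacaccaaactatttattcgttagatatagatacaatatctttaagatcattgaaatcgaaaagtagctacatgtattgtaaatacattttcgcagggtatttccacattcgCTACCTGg
upd2, X, 18239392 to 18239592, signal 87.0: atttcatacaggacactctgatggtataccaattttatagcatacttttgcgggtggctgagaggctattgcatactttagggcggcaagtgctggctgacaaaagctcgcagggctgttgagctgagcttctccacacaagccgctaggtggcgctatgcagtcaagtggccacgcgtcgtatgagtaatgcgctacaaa
Socs36E, 2L, 18145388 to 18145588, signal 148: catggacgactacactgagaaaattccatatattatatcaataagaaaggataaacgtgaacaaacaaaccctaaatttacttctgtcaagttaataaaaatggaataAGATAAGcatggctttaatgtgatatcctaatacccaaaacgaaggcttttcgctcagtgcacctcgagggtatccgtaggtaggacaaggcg
Ptp61F, 3L, 1443000 to 1443200, signal 143: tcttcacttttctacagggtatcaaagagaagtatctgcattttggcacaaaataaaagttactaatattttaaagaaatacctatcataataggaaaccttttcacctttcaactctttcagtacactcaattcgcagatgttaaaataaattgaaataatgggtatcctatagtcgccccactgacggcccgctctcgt
Ptp61F and ru, 3L, 1376116 to 1376316, signal 102: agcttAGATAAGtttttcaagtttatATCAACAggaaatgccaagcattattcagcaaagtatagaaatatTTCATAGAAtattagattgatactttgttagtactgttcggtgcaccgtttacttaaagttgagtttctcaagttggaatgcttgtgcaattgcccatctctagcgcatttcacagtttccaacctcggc
The shared upd1 and upd3 window held 1 Zelda match near its edge, the Socs36E window 1 GATA match 11 bp from the summit, and the upd2 and the stronger Ptp61F windows no match at all. For upd3, dome and hop no IDR summit met the rule, and the window shared with upd3 was chosen for upd1. The Stat92E summit lies in a 5′ UTR, so only its forkhead match is shown further on.

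The ligand genes lie near each other on X and had the fewest IDR summits. The only IDR summit in the windows of upd1 (18305354 to 18309291) and upd3 (18277233 to 18284596) was the intergenic one at 18294213, with signal 108 and rank 1458. It lay 9617 bp beyond the end of upd3 and 11141 bp beyond the end of upd1, with the TSS of upd1 the nearest of a coding gene at 14046 bp and that of lncRNA:CR15061 at 1833 bp. Its signal was 60.5 in replicate 2 (rank 1378) and 46.6 in replicate 3 (rank 1706), so it stood in a similar place in both.

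For upd2 (18240654 to 18243284) the single IDR summit, at 18239492, lay 1162 bp past the end of the gene and 3792 bp from its TSS, with signal 87.0 and rank 2051. It was weaker in replicate 2 (signal 36.8, rank 3334) than in replicate 3 (signal 50.5, rank 1508), and in replicate 2 it fell outside the 3203 strongest peaks. At the TSSs of the ligand genes themselves, even the relaxed pooled list had little. The nearest pooled summit to a TSS of upd1 was 3600 bp away with signal 18.2, that of upd2 was 1602 bp away with signal 22.9, and that of upd3 was 556 bp away with signal 22.2, against a median of 26.0 over the pooled list.

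The receptor gene dome (X, 19676061 to 19683518) had 2 IDR summits in its window, and both belonged to the surroundings of other genes. The stronger, at 19668586 with signal 229 and rank 339, was the highest of the 23. It lay in an intron of Zw, which encodes glucose-6-phosphate dehydrogenase, 1136 bp from the nearest Zw TSS and 14932 bp from that of dome. Its signal was 124 in replicate 2 (rank 302) and 106 in replicate 3 (rank 383). The other, at 19693365 with signal 133, lay 135 bp from a TSS of Mer, which encodes the tumour suppressor Merlin, and ranked 2272 in replicate 2 (signal 46.0) and 608 in replicate 3 (signal 83.6).

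A pooled summit stood 13 bp from the TSS of dome, at 19683505 with signal 64.7. At rank 3259 it was 56 places below the end of the IDR list, whose lowest signal was 65.4. Its ranks in the replicates were close, 4352 in replicate 2 (signal 31.7) and 4394 in replicate 3 (signal 24.8). A weaker pooled summit at 19683706 (signal 32.7), 102 bp from the TSS of the neighbour Ubqn, was matched to the same replicate peaks. The replicate values therefore do not belong to the dome summit alone. The gene et, whose product is a dome-related receptor that dampens signalling, lies next to dome, and its window held the same 2 IDR summits and no other.

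The window of the kinase gene hop (X, 11360930 to 11368098) also held 2 IDR summits, at 9389 and 16228 bp from the gene body. The stronger, at 11351541 with signal 195 and rank 469, lay in an intron of CG1737, 933 bp from its TSS, and ranked 686 in replicate 2 (signal 84.5) and 333 in replicate 3 (signal 111). The weaker, at 11384326 with signal 83.0, lay 554 bp upstream of a TSS of dlg1, which encodes the cell polarity protein Discs large, with ranks of 2580 and 2685 (signals 42.7 and 34.3).

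At hop itself a pooled summit lay 109 bp from the TSS, at 11368207, with signal 47.0 and rank 5227. Replicate 2 had a summit there (signal 30.2, rank 4689), while in replicate 3 the nearest summit was 2831 bp from the TSS. A peak at the hop promoter was thus listed in 1 of the 2 replicates. The TSS of Tim8 lies close by, with a weaker pooled summit 24 bp from it at 11368421 (signal 19.9).

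Stat92E (3R, 20535323 to 20552311) was one of 2 genes with an IDR summit within 500 bp of an own TSS, beside Ptp61F, where 15.2% of all genes had such a summit. The summit, at 20550783 in a peak from 20550581 to 20550984, lay 324 bp downstream of a Stat92E TSS in a 5′ UTR. Its signal was 102 and its rank 1613, with signal 61.8 in replicate 2 (rank 1334) and 36.9 in replicate 3 (rank 2436), so that both replicates held it among their 3203 strongest.

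Within 26 bp of that summit stood a forkhead match, GTAAACA, the reverse complement of TGTTTAC, at 20550754 to 20550760. It is shown with 10 bases on either side.
Stat92E, 3R, 20550744 to 20550770: acaacactgtGTAAACAcacacggctg
Upstream of Stat92E, 2 IDR summits fell at DPCoAC, which encodes a mitochondrial carrier of dephospho-coenzyme A. The one at 20557728, with signal 109, lay 61 bp from the DPCoAC TSS and ranked 2662 and 1076 in replicates 2 and 3. The one at 20556502, with signal 66.1 and rank 3164, stood close to the end of the IDR list and was the only one of the 23 outside the 3203 strongest peaks of both replicates (ranks 4505 and 3348).

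Below the IDR list, Stat92E had 10 pooled summits inside its body, more than any of the shorter genes. The strongest, at 20542455 with signal 62.7 and rank 3418, had the TSS of the neighbour MtnD as the nearest, at 7493 bp. It matched a summit of replicate 2 with signal 53.6 and rank 1712, and replicate 3 had none within 200 bp. The next in the body, at 20548543 with signal 59.1, was likewise matched in replicate 2 (signal 37.2, rank 3284) and not in replicate 3. Of the 19 pooled summits below the IDR list in the window, 3 had no match in replicate 2 and 10 had none in replicate 3.

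Socs36E (2L, 18138675 to 18152417), an inhibitor that is itself a known target of Stat92E, had all of its 3 IDR summits inside its body, in introns. The strongest, at 18145488 with signal 148 and rank 787, lay 6929 bp downstream of the TSS and 390 bp from that of lncRNA:CR44478. Its signal was 68.5 in replicate 2 (rank 1072) and 74.8 in replicate 3 (rank 754). The one nearest the promoter, at 18151303 with signal 90.9, lay 1114 bp downstream of the TSS and ranked 3089 in replicate 2 (signal 38.6) and 1416 in replicate 3 (signal 52.4). These 2 summits were in the strongest set of both replicates.

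The remaining Socs36E summit, at 18141651 with signal 83.0, differed between the replicates. Its signal was 65.4 in replicate 2 (rank 1175) and 18.3 in replicate 3 (rank 8574), a log2 ratio of 1.83, where the log2 ratio over all matched IDR summits had a standard deviation of 0.65 around a median of 0.15. The TSS of kel, which encodes the ring canal protein Kelch, was nearer to it (3568 bp) than that of Socs36E (10766 bp). At the Socs36E TSS the pooled list had a summit 31 bp away with signal 24.8, matched in replicate 2 (signal 16.9, rank 12575), whereas the nearest summit of replicate 3 was the one 1167 bp downstream.

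Ptp61F (3L, 1342493 to 1475257), which encodes a tyrosine phosphatase that acts on Hop and Stat92E, had 11 IDR summits over a window of 172765 bp, of which 7 lay inside the gene. Counts at least as high were found at 10 of all 13945 genes, Ptp61F included (0.0717%). Of the other 97 genes with a window within 25% of this length, 1 reached 11, the median was 2 and the range 0 to 15. Such long windows span many genes, and Ptp61F has 9 protein-coding genes nested within it, among them ru and rho, which encode rhomboid proteases of EGFR signalling.

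Only 1 of the 11 summits had a TSS of Ptp61F as the nearest. It lay 7 bp from the TSS at 1350599, which is one of 4 and lies near the 3′ end of the gene, in a peak from 1350390 to 1350793 with signal 68.6 and rank 2968. Its ranks were 2941 in replicate 2 (signal 39.6) and 3220 in replicate 3 (signal 30.3), and the summit of replicate 3 was 178 bp away. A weaker pooled summit at 1350792 (signal 36.4), 193 bp from the same TSS, was matched to the same replicate peaks. The replicate 3 summit, at 1350770, lay closer to that weaker summit. These replicate values therefore do not belong to the IDR summit alone. At the first TSS, 1475257, the nearest pooled summit was the IDR summit 4204 bp away, nearest to stet, a further rhomboid gene.

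Inside Ptp61F the strongest summit, at 1443100, had signal 143 and lay in an intron 5228 bp upstream of SA2 (signals 81.1 and 59.9, ranks 751 and 1131). It was followed by one at 1368322 with signal 141, 2306 bp upstream of ru (signals 72.9 and 68.0, ranks 942 and 897).

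Rhomboid genes were the nearest for 4 of the 11. Besides the summit upstream of ru, 2 lay inside ru and Ptp61F, in introns, at 1376216 (signal 102) and 1379080 (signal 75.3), and 1 lay 520 bp upstream of stet at 1479461 (signal 99.5). Their ranks were 1666, 3190 and 1588 in replicate 2 and 1701, 2317 and 1797 in replicate 3. At rho the pooled list had a summit 43 bp from the TSS with signal 47.8 and rank 5089, found in replicate 2 (signal 32.8, rank 4073) and in replicate 3 not within 200 bp.

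A further 4 summits in the Ptp61F window had signals from 68.5 to 132. The one at 1323310, 504 bp upstream of CG9184 and 19183 bp from Ptp61F, ranked 1140 and 950 in the replicates. The one at 1342258, 93 bp from the TSS of indra, ranked 5385 and 1765, and the one at 1414192, upstream of the fucosyltransferase gene FucTD, ranked 3288 and 1849. The one at 1352358, in a 3′ UTR of CG9166, differed the most of the 23, with signal 56.7 in replicate 2 (rank 1563) and 14.8 in replicate 3 (rank 14967), a log2 ratio of 1.94.

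**Figure D2:**
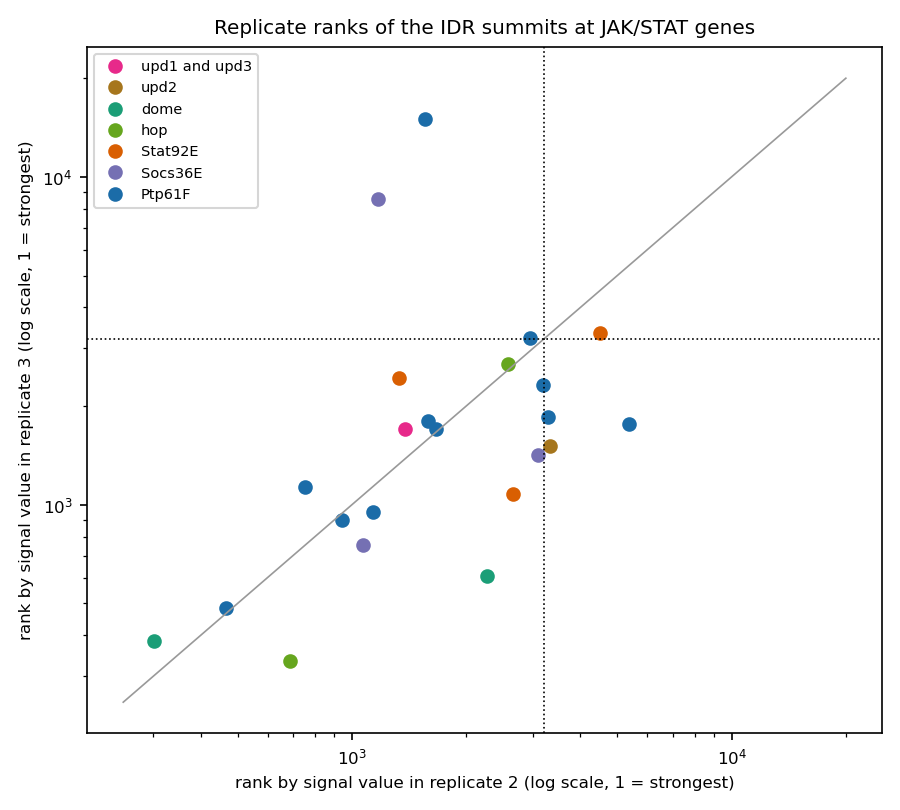
Rank by signal value of each of the 23 IDR summits in replicate 2 (x) and replicate 3 (y), both on log scales with 1 the strongest, coloured by gene. The grey line marks equal ranks and the dotted lines rank 3203. A summit of Socs36E and a summit of Ptp61F stand far above the line, with ranks of 8574 and 14967 in replicate 3.

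Every one of the 23 summits had a summit within 200 bp in both relaxed replicate lists, as had 3148 of all 3203 IDR summits. Of the 23, 19 were among the 3203 strongest peaks of replicate 2 and 19 among those of replicate 3. In both sets were 16 (69.6%), where the share over all IDR summits was 69.7%. The ranks differed by more than 3 times at 4 of the 23 (17.4%), against 14.9% of the IDR summits matched in both. These 4 lay at Mer, in the Socs36E body, at indra and at CG9166. The standard deviation of the log2 ratio of the replicates' signals was 0.68 over the 23. Over all matched IDR summits it was 0.65, so the spread between replicates was of similar size.

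The 23 summits had a median signal of 102, with a range from 66.1 to 229. Over the whole IDR list the median was also 102 and the highest was 1453. Within 500 bp of the TSS of a protein-coding gene lay 6 of 23 (26.1%), against 50.9% over the IDR list, a difference that was not tested. Of these 6, 2 were promoters of Stat92E and Ptp61F and 4 were promoters of neighbours. A further 3 lay between 504 and 554 bp from a TSS, just past the limit. The median distance to the nearest TSS was 1136 bp, against 468 bp over the list. In all, 14 summits were in introns and 3 were intergenic. The shares of the whole list are not given for these classes, so the counts cannot be read as particular to these genes.

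The density of IDR summits was lowest at the ligand genes and highest at Ptp61F. It was 0.0228 per kb at upd1, 0.0235 at upd2 and 0.0211 at upd3, each just under the 0.0256 per kb of the X arm. It was 0.0421 at dome and 0.0424 at hop, on the same arm. It was 0.0526 at Stat92E, 0.0558 at Socs36E and 0.0637 at Ptp61F, where the arms 3R, 2L and 3L had 0.0235, 0.0247 and 0.0236. The density rests on 1 summit at each ligand gene and on 2 at dome and at hop, and at these 5 genes its difference from the arm amounts to less than a single summit per window. At Stat92E and at Socs36E it rests on 3 summits each. The density of an arm was taken over its whole length and not over stretches around genes, so the 2 are not a like comparison. No difference in density was tested.

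**Figure D3:**
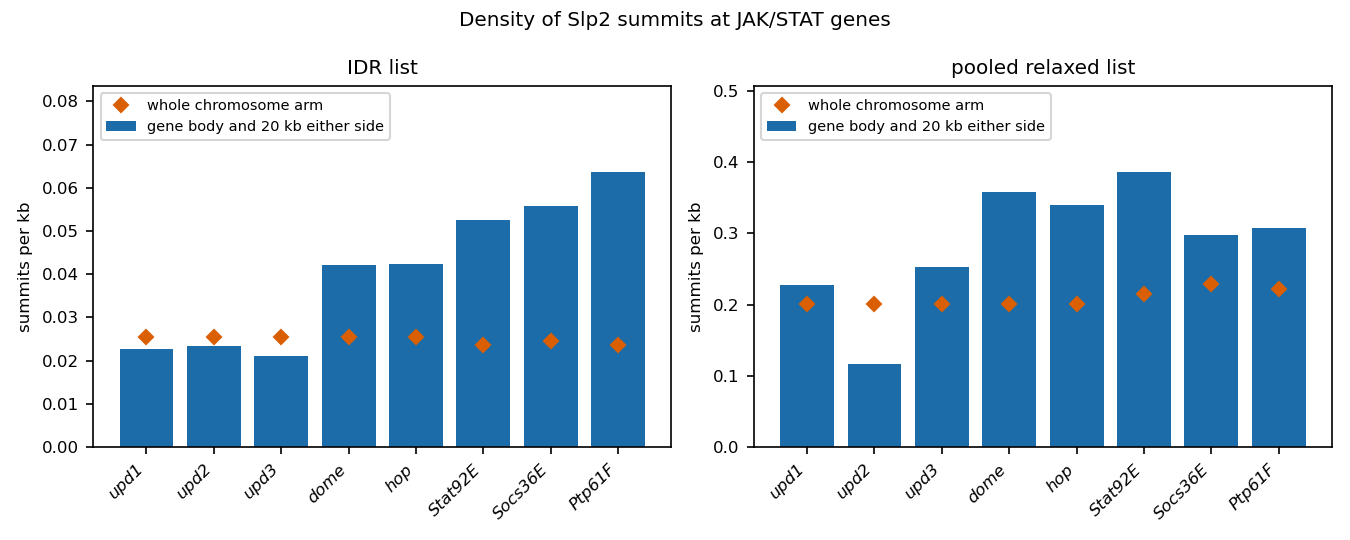
IDR summits per kb (left) and pooled summits per kb (right) in the body and 20 kb either side of each gene (bars), with the density of the whole chromosome arm (diamonds). In the IDR list the bars of the ligand genes lie just below their diamonds and those of the other 5 genes above, at dome and hop by less than 1 summit per window.

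In the relaxed pooled list the same windows held 10 summits at upd1, 5 at upd2, 12 at upd3, 17 at dome, 16 at hop, 22 at Stat92E, 16 at Socs36E and 53 at Ptp61F. The density at upd2, 0.117 per kb, was below the 0.201 of the X arm, and that at the other 7 genes, 0.228 to 0.386, was above that of their arms. The arm densities are again those of whole arms, and the differences were not tested. A pooled summit within 500 bp of an own TSS was found for dome, hop, Stat92E, Socs36E and Ptp61F, that is for 5 of 8 genes, against 51.4% of all genes. The 3 genes without one were the ligand genes. The replicate lists had 5 and 10 summits at upd1, 4 and 11 at upd2, 7 and 13 at upd3, 16 and 21 at dome and 17 each at hop, in replicates 2 and 3. For Stat92E they had 31 and 21, for Socs36E 18 and 19, and for Ptp61F 49 and 47.

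Matches to the forkhead motif stood within 100 bp of 4 of the 23 summits (17.4%), where 22.1% of all IDR summits had one. They were the Stat92E summit in the 5′ UTR, the promoter of DPCoAC, the dlg1 summit in the hop window and the summit at 1376216 inside Ptp61F and ru. A STAT match stood at 3 summits (13.0%), against 11.9% of all IDR summits, and all 3 were in the Ptp61F window. The one at indra, TTCGCAGAA, lay 8 bp from its summit, and the others, TTCATAGAA in the intron of ru and TTCAGAGAA at CG9166, lay 25 and 85 bp from theirs. None of the 3 summits in Socs36E had a STAT match within 100 bp, nor did any at Stat92E, dome, hop or the ligand genes.

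The 29 bases around the match at indra and those around the match at CG9166 show both.
Ptp61F at indra, 3L, 1342252 to 1342280: ctgcagaacgTTCGCAGAAcgaatcttaa
Ptp61F at CG9166, 3L, 1352429 to 1352457: aactcttcttTTCAGAGAAtaaaggcaga
The summit at 1376216, whose sequence is given above, was the only one with both a forkhead and a STAT match, and also held a GATA match. The GATA motif was found at 3 summits (13.0%, against 2.84% of all IDR summits), in Socs36E, at CG9184 and in the intron of ru. The Zelda motif was found at 2 (8.70%, against 1.03%), in the summit shared by upd1 and upd3 and at stet. These differences rest on few summits and were not tested. None of the 23 held a DREF match (4.09% of all IDR summits) or a GAGA factor match (3.93% of all), and 13 of the 23 held none of the 6 motifs. The share of all IDR summits with none of the 6 is not given, so the 13 cannot be read as particular to these genes.

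**Figure D4:**
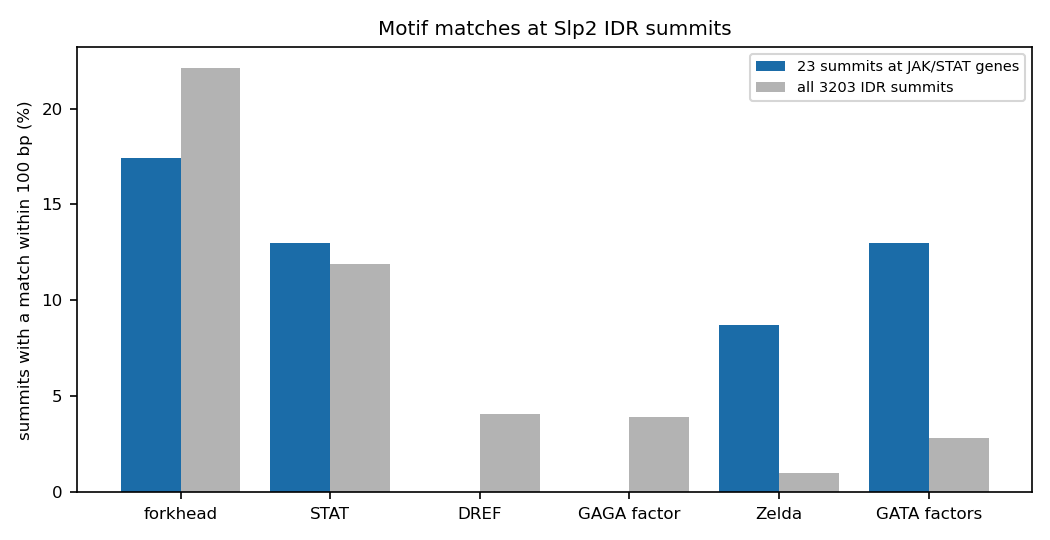
Share of summits with a match to each motif within 100 bp (y, %), for the 23 IDR summits at the JAK/STAT genes (blue) and all 3203 IDR summits (grey). The blue bars stand for 4, 3, 0, 0, 2 and 3 summits.

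Among the 123 distinct pooled summits below the IDR list in these windows, 17 (13.8%) had a forkhead match, against 17.3% of all such pooled summits. A STAT match was found at 23 (18.7%), against 10.2%. By gene, STAT matches stood at 7 of 42 such summits at Ptp61F, 5 of 13 at Socs36E, 3 of 19 at Stat92E and 3 of 15 at dome. They stood at 2 of 14 at hop, 2 of 11 at upd3, 1 of 9 at upd1 and 1 of 4 at upd2. The difference from the other pooled summits was not tested.

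Of 22 other genes of the pathway, its regulators and targets, 14 had an IDR summit within 20 kb (63.6%), close to the share of all genes. A summit with an own TSS as the nearest was found at 8 (36.4%, against 17.0% of all genes), and one within 500 bp of an own TSS at 2 (9.09%, against 15.2%). These differences were not tested. The strongest belonged to ken, which encodes a repressor of Stat92E targets (2R, 23873655, signal 274, rank 219, ranks 265 and 196 in replicates 2 and 3). It was followed by chinmo, a target in stem cells, which had 8 summits in its window, 7 of them with its own TSS as the nearest, led by one with signal 242 at 12376 bp from the TSS.

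The target zfh1 had 4 summits, 3 of them its own, the strongest with signal 194 (ranks 593 and 409). The gene apt, a feedback regulator in border cells, had 8, of which 6 were its own and the strongest had signal 173 (ranks 481 and 819). The others were crb (signal 125), the cyclin-dependent kinase gene Cdk4 (signal 121), E(bx), which encodes a nucleosome remodelling subunit (signal 81.2, 106 bp from its TSS), and wg (signal 76.1). Among those with no IDR summit in the window were the stress genes TotA and TotC, BRWD3, CycD, Stam, asrij, vvl and nub.

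The limits that chose these summits can be read from the nearest ones on either side. In the Ptp61F window the outermost summit lay 19183 bp from the gene and the first one outside 23204 bp, and for hop these distances were 16228 and 21175 bp. For the ligand genes the first summit outside the window was 37741 bp or more away.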

How the data were processed

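Of the narrowPeak lists deposited by the authors, the 4 on dm6 were used and those on dm3 were not. Per the deposited readme files, each relaxed list was made from the alignments of 1 or both samples and a further file, and the IDR list from the relaxed lists. The aligner, peak caller and IDR threshold are not given in the sources used here. The deposited signal value is a score. The deposited -log10 q value was not used to rank, since 2452 of 3203 IDR peaks share its highest value, 3.69. Per the labels, chromatin was sheared to 200 to 800 bp.

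Genes and TSSs were those of Ensembl release 115 (BDGP6.54), sequence was that of RefSeq Release 6, and every dm6 peak ended within its arm. Summits were assigned with a window of 20 kb, and the strongest replicate summit within 200 bp was taken as the match. Motifs were searched on both strands within 100 bp of a summit. Counting and motif search were tested on simulated data. Python 3.11.15, pandas 2.3.3 and numpy 2.4.6 were used. The genes, lists and motifs were chosen with earlier results of these data known. The genes named are mainly the 8 members, the gene nearest each of their IDR summits, and up to 8 of 22 further pathway genes, chosen by their strongest own summit. Some neighbours at pooled summits are named as well. One summit in the Ptp61F window is counted but not reported here by itself. STAM was listed as Stam.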

Additional observations from a re-analysis of the deposited data

How the results depend on the processing

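Counts within 1.5 times of the value given were treated as unchanged. Of 35 comparisons of the main counts with an alternative setting, 20 were unchanged. Genes with an IDR summit numbered 4 with windows of 5 kb and 3 in gene bodies alone, instead of 8. Distinct summits then numbered 15 and 11 instead of 23, 10 in the stronger 50% of the IDR list and 146 in the whole pooled list. Genes with a promoter summit numbered 1 within 250 bp and 0 in the stronger 50%, instead of 2. With the strongest peaks of a single replicate they numbered 1 to 2, and the 1, Stat92E, came from replicate 3. Summits nearest an own TSS numbered 2 in the stronger 50%, instead of 6. With the TSSs of all annotated genes they numbered 4, which still counts as unchanged by the limit of 1.5 times. In the stronger 50%, 10 summits were among the strongest of both replicates, instead of 16. Summits with a forkhead match numbered 1 within 50 bp, 7 within 150 bp and 1 in the stronger 50%, instead of 4, where 12.4% and 30.7% of all IDR summits had one within 50 and 150 bp. Summits with a STAT match numbered 0 in the stronger 50%, instead of 3. The fewer peaks of the stronger 50% and the shorter windows lower these counts by their construction. Of all protein-coding genes, 9.06% had an IDR summit in the body. The shares of all genes at 5 kb, within 250 bp and in the stronger 50% are not given. The counts of genes at those settings therefore cannot be read as particular to these 8. By gene, 29 of 56 comparisons were unchanged. With replicate 2 alone upd2 had no summit. No paired analysis was possible because there is 1 group. Without read numbers, counting error could not be given.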
